A study of Mus musculus with 48 samples.

Results

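Sucrose/oleate and starch/palmitate are the opposite corners of a diet design that crossed a carbohydrate with a fatty acid, so the comparison of these diets exchanges both nutrients at once. The members are all libraries labelled with either diet, 16 of the 48 in the series: 9 of sucrose/oleate and 7 of starch/palmitate. C3H/HeOuJ mice, an inbred strain, had free access to their diet for 6 months, and total RNA was then taken from the epididymal white fat, a visceral depot attached to the testis. Each custom diet supplied 42% of calories as carbohydrate and 42% as fat; 1 used sucrose with oleate, a monounsaturated fatty acid, and the other used starch with palmitate, a saturated fatty acid. Chow, fed for the same time to mice of the same strain, was the control (n = 8). Sucrose/palmitate (n = 8) and starch/oleate (n = 9) complete the crossed design, and a Western diet group (n = 7) entered the fit only for its spread.

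White adipose tissue stores triglyceride in adipocytes and holds a large resident immune compartment, mostly macrophages with T cells, natural killer cells and mast cells. When the fat pad expands, macrophages gather around dying adipocytes and take up lipid, and matrix is laid down under the control of growth factors such as transforming growth factor beta. This factor binds its type II receptor, which recruits and phosphorylates the type I receptor, and the type I receptor then activates SMAD proteins. The adipocyte products, receptors and cytokines of these cells are read by the NanoString nCounter Mouse Immunology panel, a hybridisation assay that counts coloured barcodes directly, with no amplification step.

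Probes for 547 genes and 14 reference genes were on the panel, beside 8 negative and 6 positive controls. Total counts of the gene probes ran from 455563 to 722254 in the sucrose/oleate libraries and from 474456 to 888687 in the starch/palmitate libraries. The negative probes averaged 7.49 counts over the 16 libraries, with single counts of up to 19, so values near this level cannot be told from background. The ratio of positive controls A and B was 2.92 to 3.07 with sucrose/oleate and 2.92 to 3.16 with starch/palmitate; the diets were paired for their low ratios, so this is a description only. Chow libraries lay at 3.17 to 3.39, above every library of both diets. The adipocyte markers Cfd, Pparg and Cd36 were well above background in all 16 libraries. In 2 starch/palmitate libraries, replicates 3 and 1, the sum of the epithelial genes was far above that of every other library of these groups. The 5 epithelial genes on the panel (Pigr, Defb1, Ceacam1, Ltf and Muc1) summed to a scaled count of 29380.2 in replicate 3 and 5747 in replicate 1, against 175 to 633 in the other 5 starch/palmitate libraries and 162 to 261 with sucrose/oleate. In replicate 1 most of the sum was Defb1 (3564) and Ceacam1 (2066), while Pigr, at 95.7, was below replicate 5 at 273. A scaled count is the count divided by the library's factor from the 14 reference genes. The 18 genes that differed are given with and without these 2 libraries. The labels do not say that the libraries of a group came from separate animals, so p-values measure the spread between these libraries only.

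Of 491 genes tested, 18 differed between the diets (3.67%, adjusted p under 0.05): 8 were higher (1.63%) and 10 lower (2.04%) with sucrose/oleate. The higher genes included Tgfbr1, the type I receptor of transforming growth factor beta, the growth factor Pdgfb, the integrin Itgb1, the inflammation-restraining genes Tnfaip3 and Tnfaip6, and the complement gene Cfb, with differences of 0.24 to 0.93 on the log2 scale. The lower genes were led by the epithelial genes Defb1, Pigr and Ceacam1 and by Gata3, and the highest value of all 10 lay in starch/palmitate replicate 1 or 3. Over all genes tested the median log2 difference, sucrose/oleate minus starch/palmitate, was -0.01, and 237 of them (48.3%) lay above 0. At an unadjusted p under 0.05 there were 96 genes. Without starch/palmitate replicates 1 and 3 no gene passed (0 genes, 55 at an unadjusted p under 0.05, smallest adjusted p = 0.096, edgeR). All 18 kept their sign, but they were chosen in largely the same libraries, so this is a description only. Without replicate 3 alone 5 genes passed, namely Tgfbr1, Pdgfb and Tnfaip6, higher, and Defb1 and Gata3, lower. Without replicate 4 there were 29. In bulk tissue a change in the number of cells of a type and a change in RNA per cell cannot be told apart.

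Of the 8 higher genes, 3 belonged to the list of transforming growth factor beta signalling and matrix. Tgfbr1 had scaled counts of 1830.1, 2461 and 2940.5 (lowest, median and highest) with sucrose/oleate, 1203, 1561 and 1803 with starch/palmitate, and a median of 988 on chow. Every sucrose/oleate library lay above every starch/palmitate library. The difference was 0.63 ± 0.13 (SE; 95% interval 0.37 to 0.89; adjusted p = 0.0022), a 1.55-fold higher level. Such separation without overlap was seen for 4 of the 491 genes (0.815%): Tgfbr1, Tnfaip3 and Ifnar1, higher (0.611%), and Psmc2, a proteasome subunit, lower (0.204%). Psmc2 ran from 1455 to 1584 with sucrose/oleate and from 1590.2 to 1807 with starch/palmitate, a difference of -0.14 ± 0.07 that did not pass (adjusted p = 0.24).

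Pdgfb encodes a growth factor that recruits pericytes and fibroblasts. Its scaled counts were 1135, 1339.5 and 1605 with sucrose/oleate, 784, 930.3 and 1137 with starch/palmitate, and 1017 at the median on chow. The groups touched at a single pair: the lowest sucrose/oleate library, replicate 6, was just below the highest starch/palmitate library, also replicate 6. The difference was 0.53 ± 0.12 (adjusted p = 0.0071). Pdgfrb, its receptor on those cells, was at 391 and 379 at the medians, with a difference of 0.04 ± 0.13 (adjusted p = 0.89).

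Itgb1, the beta 1 integrin chain that binds collagen and fibronectin, differed by less than most of the higher genes. Its values were 8900.1, 9700.3 and 10195 with sucrose/oleate and 7396, 7954 and 9376 with starch/palmitate, against a chow median of 8182. Only starch/palmitate replicate 7 reached into the sucrose/oleate range. The difference was 0.25 ± 0.06 (adjusted p = 0.011) and missed the threshold under scaling by trimmed means (0.22, adjusted p = 0.053).

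Of the 18 tested genes of this group, 3 passed and all 3 were higher, beside 1.63% of all genes. The list was written with earlier results of these data known, so this share is a description only. Of the 18, 15 did not pass, 13 lay above 0, beside 48.3% of all genes, and the median was 0.15. Among the ligands, Tgfb1 was 0.38 ± 0.16 (adjusted p = 0.20), Tgfb2 -0.48 ± 0.22 (adjusted p = 0.23) and Tgfb3 -0.05 ± 0.14 (adjusted p = 0.88). The type II receptor Tgfbr2 ran from 2351 to 3527 with sucrose/oleate and from 2005 to 3195 with starch/palmitate, overlapping widely (0.22 ± 0.13, adjusted p = 0.35). The signal carriers Smad3 and Smad5 were at -0.04 ± 0.07 and 0.03 ± 0.11, and Ski, a repressor of SMAD proteins, at 0.16 ± 0.07 (adjusted p = 0.24). Of the genes acting at the matrix, the urokinase Plau was 0.31 ± 0.14 (adjusted p = 0.21), the collagen receptor Lair1 0.66 ± 0.27 (adjusted p = 0.18), the fibronectin receptor chain Itga5 0.38 ± 0.19 (adjusted p = 0.24) and fibronectin itself, Fn1, 0.15 ± 0.23 (adjusted p = 0.75). None of these passed.

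Tnfaip3 encodes a ubiquitin-editing enzyme that is induced by NF-kappa B and switches it off. Its scaled counts were 444, 518 and 632 with sucrose/oleate, 252, 376 and 436 with starch/palmitate, and 290.5 at the median on chow. The groups did not overlap, and starch/palmitate replicate 1 was the lowest library. The difference was 0.50 ± 0.13 (adjusted p = 0.016), and the call was lost without that replicate (0.42, adjusted p = 0.059) and without replicate 3 (0.50, adjusted p = 0.052). Tnfaip3 was the only gene of the 12 in the NF-kappa B list to pass, beside 1.63% of all genes higher. Of the 12, 10 lay above 0, beside 48.3% of all genes, and the list's median was 0.08. The subunits Rela and Nfkb1 were at 0.05 ± 0.06 and 0.03 ± 0.08, the inhibitor Nfkbia at 0.05 ± 0.11 and the kinase Ikbkb at 0.16 ± 0.07, and none of these 4 passed.

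The promoter of Tnfaip3 is shown because it carries matches to the NF-kappa B consensus, and that of Tgfbr1, the separated gene with the smallest p, because it carries none. Both are the 250 bases before the gene's start, from RefSeq on GRCm38.p6: chr10:19015411-19015660 on the minus strand for Tnfaip3, and chr4:47352972-47353221 on the plus strand for Tgfbr1. Each is written 5′ to 3′ in the direction of its gene, and capitals mark the matches.
Tnfaip3: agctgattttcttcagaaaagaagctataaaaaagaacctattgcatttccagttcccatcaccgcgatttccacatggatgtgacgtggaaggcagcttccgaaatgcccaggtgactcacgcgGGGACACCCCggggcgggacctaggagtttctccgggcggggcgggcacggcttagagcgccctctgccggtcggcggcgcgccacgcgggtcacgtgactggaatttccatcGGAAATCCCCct
Tgfbr1: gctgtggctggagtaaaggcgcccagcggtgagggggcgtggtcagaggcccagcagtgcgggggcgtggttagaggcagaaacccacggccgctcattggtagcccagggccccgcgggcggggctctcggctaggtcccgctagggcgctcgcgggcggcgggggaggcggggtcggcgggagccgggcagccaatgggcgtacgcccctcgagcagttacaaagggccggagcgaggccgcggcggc
Each gene has 2 windows in the table, and the Tnfaip3 matches lie in 1 of them. The matches GGGACACCCC and GGAAATCCCC began 125 and 12 bases before the start. On either strand, the consensus was found in 4.51% of the 32851 promoter windows of 300 bases in the table, and in 5.14% of 27025 genes in any window. Of the 6 higher genes with a window in the table, 1 had a match, Tnfaip3, and of the 9 lower genes with a window, 0 had one. Pdgfb, Cfb and Defb1 had no window in the table. A match is a description of these letters and not a measured site.

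Tnfaip6 encodes a secreted protein that binds hyaluronan and is induced by tumour necrosis factor. It had scaled counts of 96.9, 123 and 148 with sucrose/oleate, 54.3, 72.9 and 101 with starch/palmitate, and 103 at the median on chow. Starch/palmitate replicate 4 alone reached the sucrose/oleate range, and replicate 7, at 96.3, lay just below it. The difference was 0.67 ± 0.16 (adjusted p = 0.0077). Tnf itself was low in both groups, at 31.6 and 25.98 at the medians (0.29 ± 0.26, adjusted p = 0.57).

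Cfb, factor B of the alternative complement pathway, had values of 1984, 2273 and 3528 with sucrose/oleate and 1584, 1937 and 2106 with starch/palmitate. Of the sucrose/oleate libraries only replicate 9 fell inside the starch/palmitate range, while replicates 1, 2, 5 and 6 stood apart at 2860.3 to 3528. The difference was 0.49 ± 0.14 (adjusted p = 0.026). This call was among the least stable: it passed in 9 of the 16 fits that each left out 1 library.

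Cfb was the only 1 of 24 complement genes to pass, beside 1.63% of all genes higher. Of the 24, 10 lay above 0, beside 48.3% of all genes. The median was -0.04, or 0.06 without starch/palmitate replicates 1 and 3. C3, the central component, had 5329, 6715 and 14026 against 3537, 4997 and 6899.7, with the top value in sucrose/oleate replicate 2. Its difference of 0.49 ± 0.17 did not pass (adjusted p = 0.095). Cfd, which cleaves factor B and is made by adipocytes, was at -0.45 ± 0.44 (95% interval -1.34 to 0.44; adjusted p = 0.62). The classical pathway genes C1qa and C1qb were at -0.04 ± 0.22 and -0.03 ± 0.25.

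Ifnar1, a chain of the type I interferon receptor, ran from 1333 through 1389.5 to 1481 with sucrose/oleate and from 1105 through 1168 to 1319 with starch/palmitate, with a chow median of 1130.0. The groups did not overlap, although starch/palmitate replicate 4, at 1319, came close to the lowest sucrose/oleate library. The difference was 0.24 ± 0.07 (adjusted p = 0.026), and the partner chain Ifnar2 was at 0.10 ± 0.09 (adjusted p = 0.57). Of the 16 tested interferon response genes 0 passed and 6 lay above 0, beside 48.3% of all genes. The median was -0.11, or -0.008 without starch/palmitate replicates 1 and 3. Cxcl9, Cxcl10 and Cxcl11, chemokines induced by interferon gamma, were at -0.78 ± 0.37, -0.70 ± 0.36 and -0.67 ± 0.33, the last near background. Cxcl10 was at 36.3 and 40.2 at the medians, with starch/palmitate replicates 3 and 4 highest at 210 and 112.

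Klra8, an activating receptor of natural killer cells from the Ly49 family, had the largest difference among the higher genes. Its values were 103, 132 and 159 with sucrose/oleate, 37.05, 68.3 and 112 with starch/palmitate, and 39.5 at the median on chow. Starch/palmitate replicate 6 alone reached the sucrose/oleate range. The difference was 0.93 ± 0.24 (adjusted p = 0.014), a 1.90-fold higher level. Ly49 genes are near-identical copies that differ in number between inbred strains, so which of them the probe reads in C3H/HeOuJ is uncertain. Klra8 was the only 1 of 13 natural killer and cytotoxic genes to pass, beside 1.63% of all genes higher, and the list median was 0.02. The granzyme Gzma was 0.61 ± 0.26 (adjusted p = 0.20) and the related receptor Klra7 0.10 ± 0.23.

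For all 8 higher genes, each of the 9 sucrose/oleate libraries lay above the mean of the starch/palmitate libraries. These genes were chosen for their difference in the same libraries. The same was seen for genes that did not pass, among them C3, Lair1, Trem2 and Cd36. When the counts were scaled to the positive control probes in place of the reference genes, the differences stayed between 0.24 and 0.91 but none of the 8 passed, with adjusted p from 0.10 to 0.57. The reference genes were themselves tested after scaling by their own geometric mean. Their differences are therefore relative to each other and nearly cancel, since a rise in any of them lowers the rest. These values cannot tell which reference genes changed with diet. On this relative scale Sdha was at -0.36 ± 0.10 (adjusted p = 0.015). Oaz1 was at -0.14 ± 0.05 (adjusted p = 0.067) and Gusb at 0.61 ± 0.21 (adjusted p = 0.081). Polr2a was at 0.13 ± 0.05 (adjusted p = 0.13) and Alas1 at -0.24 ± 0.10 (adjusted p = 0.18).

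**Figure D1:**
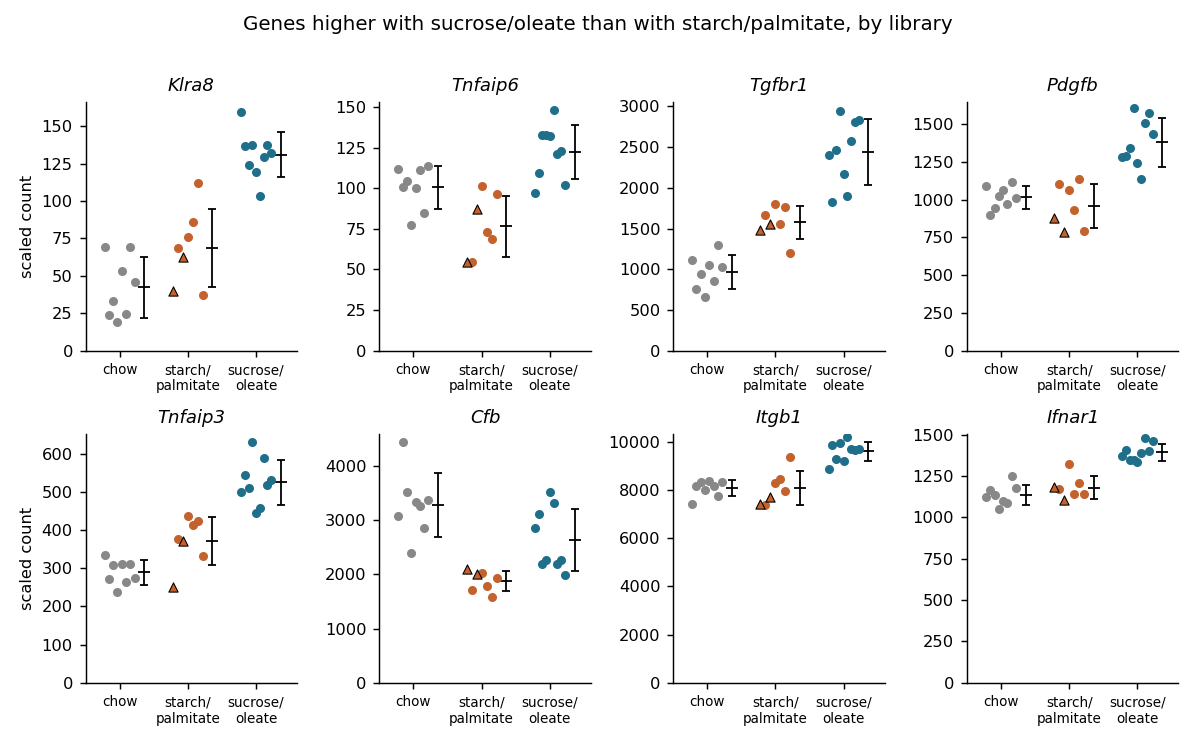
Scaled counts (linear axis from 0) of the 8 genes higher with sucrose/oleate, 1 panel per gene and 1 point per library, for chow, starch/palmitate and sucrose/oleate. Triangles are starch/palmitate replicates 1 and 3, and the bar beside each group is its mean with 1 SD. For Tgfbr1 the sucrose/oleate libraries start at 1830.1, above the highest starch/palmitate library at 1803.

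Among the 10 lower genes, the highest values lay in a few starch/palmitate libraries. Defb1, an antimicrobial peptide of epithelia, had scaled counts of 4.24, 8.90 and 15.6 with sucrose/oleate, the level of the negative probes, and 10.9, 115 and 17525 with starch/palmitate. Replicate 3 held the top value and replicate 1 the next at 3564, whereas replicates 2, 5 and 6 were at 10.9 to 18.3. With the sucrose/oleate mean of 9.11 under the highest negative probe, 12.02 on average over those libraries, the fold is a bound: the starch/palmitate mean was at least 255-fold higher, and at least 5.85-fold without the 2 libraries. The fitted difference passed with all libraries (adjusted p = 0.0011) and not without the 2 (adjusted p = 0.34).

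Pigr, the receptor that carries immunoglobulin A across epithelia, had 8.48, 16.2 and 51.5 with sucrose/oleate and 13.1, 46.8 and 8629 with starch/palmitate. Replicate 3 stood alone, and the next library, replicate 5, was at 273. The difference was -6.14 ± 1.07 (adjusted p = 0.00038), the smallest p of all genes, and without the 2 libraries -2.01 ± 0.78 (adjusted p = 0.27). Ceacam1, an adhesion molecule of epithelia and leukocytes, had 123, 142 and 170.1 against 106, 162 and 3199. Replicates 3 and 1, at 3199 and 2066, were the only ones above 322. Its difference of -2.60 ± 0.64 (adjusted p = 0.0090) became -0.28 ± 0.56 without them. Of the 5 epithelial genes 3 passed, all lower, beside 2.04% of all genes. This list too was written with earlier results of these data known. Ltf and Muc1 were near background in both groups, at 8.48 and 8.64 with sucrose/oleate and 10.1 and 9.53 with starch/palmitate at the medians, and did not pass.

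Gata3, the transcription factor of type 2 helper T cells that some epithelia also use, was spread over more libraries. It had 15.5, 40.3 and 62.5 with sucrose/oleate and 33.4, 175 and 1759.7 with starch/palmitate. Replicates 1, 7 and 3 were at 1759.7, 829.8 and 650.4 and replicate 4 at 175, all above the sucrose/oleate range, while replicates 2, 5 and 6 lay inside it. The difference was -3.68 ± 0.91 (adjusted p = 0.0093), and -2.51 ± 0.92 (adjusted p = 0.26) without replicates 1 and 3. The other genes of the type 2 list did not pass: of 8 tested, 1 passed, lower, beside 2.04% of all genes. The list's median was -0.05, with Il13 at -0.38 ± 0.23, Ccl11 at 0.32 ± 0.22 and Il4ra at 0.03 ± 0.17.

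Mme, the membrane peptidase neprilysin, had 675, 928 and 1421 with sucrose/oleate, 772, 1602 and 17940.3 with starch/palmitate and 1579.9 at the median on chow. Replicates 3 and 1 were far out at 17940.3 and 4315, and the remaining 5 libraries ran from 772 to 1764, overlapping the other diet. The difference was -2.06 ± 0.48 (adjusted p = 0.0071) with all libraries and -0.44 ± 0.41 (adjusted p = 0.70) without the 2. H2-Q10, a secreted relative of class I molecules, rested on 1 library: replicate 3 had 8669, the other 6 ran from 196 to 389.6 and the sucrose/oleate libraries from 160.2 to 427. Its difference of -2.47 ± 0.55 (adjusted p = 0.0047) became -0.18 without replicate 3 (adjusted p = 0.89), and DESeq2, which replaces far counts, gave -0.11. The class I genes are similar in sequence, so the probe may also read relatives.

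Il17re, a receptor subunit of the IL-17 family found mainly on epithelial cells, had 10.4, 21.6 and 31.3 with sucrose/oleate, 25.8, 50.6 and 207 with starch/palmitate and 38.3 at the median on chow. Replicate 4 was the only starch/palmitate library inside the sucrose/oleate range. The difference was -1.74 ± 0.36 (adjusted p = 0.0022), and -0.99 ± 0.34 (adjusted p = 0.21) without the 2 libraries. Itln1, a lectin that binds microbial sugars, had 10.4, 14.8 and 20.1 against 19.5, 22.3 and 57.7. The groups met only at 19.5 to 20.1, with replicate 3 far above the rest. Its difference was -0.88 ± 0.21 (adjusted p = 0.0075), and -0.57 ± 0.20 without the 2 libraries, at levels only a few times those of the negative probes.

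Tigit, an inhibitory receptor of T and natural killer cells, and Zbtb7b, the transcription factor that commits T cells to the helper lineage, complete the list. Tigit was close to background, with 7.07, 11.9 and 16.6 against 8.57, 15.1 and 53.6, and only replicates 3, 6 and 4 stood above the sucrose/oleate range. Its sucrose/oleate mean, 11.6, was also under the highest negative probe, so its fitted difference is no measured fold. The difference was -1.03 ± 0.30 (adjusted p = 0.031), the weakest of those that passed, and it passed in 10 of the 16 fits that left out 1 library. Zbtb7b had 277, 306 and 353 with sucrose/oleate and 297, 418 and 482 with starch/palmitate, where 5 of the 7 libraries lay above the sucrose/oleate maximum. The difference was -0.33 ± 0.09 (adjusted p = 0.017), nearly the same size without the 2 libraries (-0.31 ± 0.09, adjusted p = 0.18), and under scaling by trimmed means it was -0.37 (adjusted p = 0.052).

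**Figure D2:**
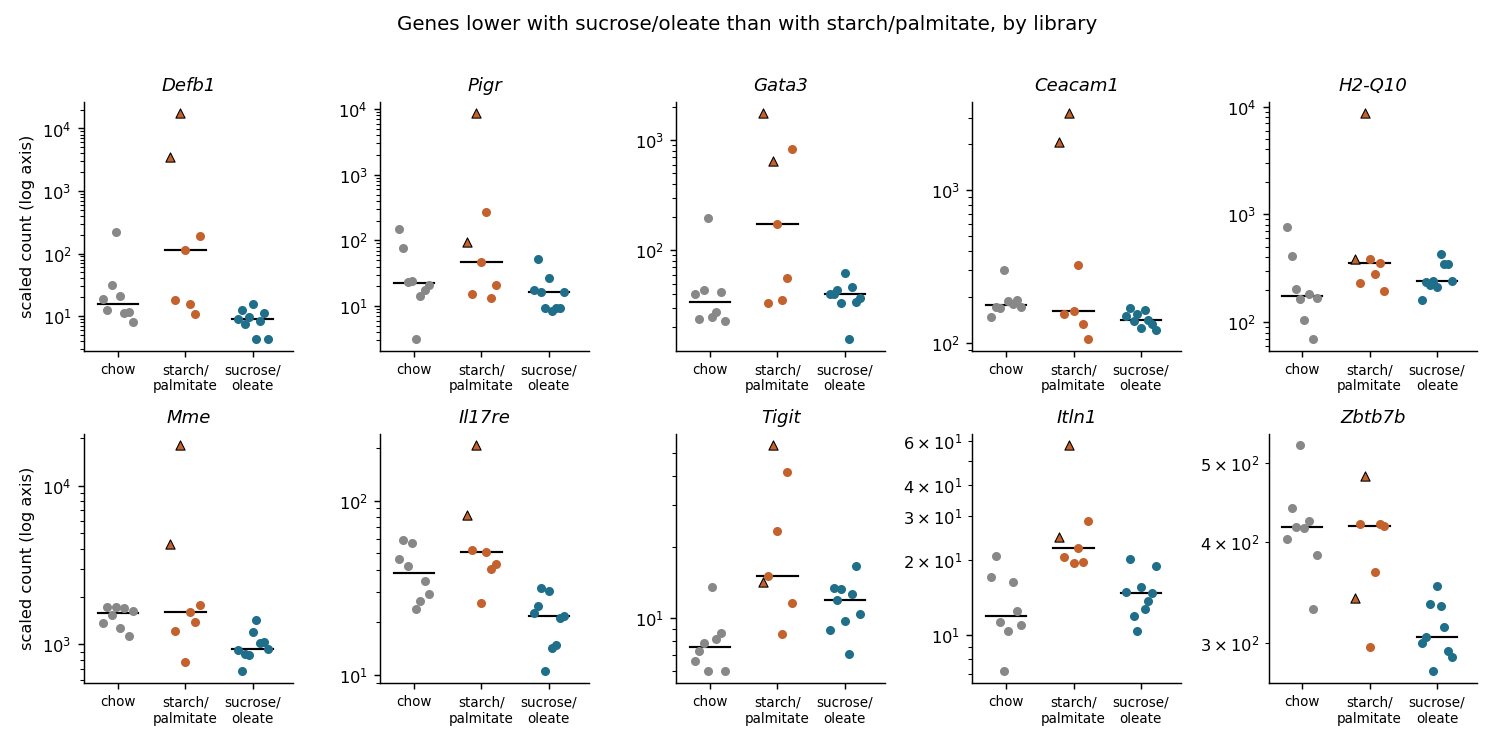
Scaled counts (log axis) of the 10 genes lower with sucrose/oleate, 1 panel per gene and 1 point per library, for chow, starch/palmitate and sucrose/oleate. Triangles are starch/palmitate replicates 1 and 3, and the horizontal line is the group median. For Defb1 these 2 libraries stand at 3564 and 17525 while the sucrose/oleate libraries stay at or below 15.6.

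Replicates 1 and 3 were left out for their epithelial genes, of which 3 are among the 10 lower genes. All 10 lower genes had their highest value in replicate 1 or 3. Their smaller differences therefore follow at least in part from the choice, and the shares kept are a description only. The 8 higher genes kept 81.9% to 112% of their log2 difference, with a median of 89.6%. Tgfbr1, for example, was 0.61 ± 0.15 and Cfb 0.55 ± 0.16. The 10 lower genes kept 4.10% to 91.4%, with a median of 45.8%, and Zbtb7b kept the most. H2-Q10, Ceacam1 and Mme were left with -0.10, -0.28 and -0.44. With 5 starch/palmitate libraries in place of 7, the standard errors of the 8 higher genes were larger.

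**Figure D3:**
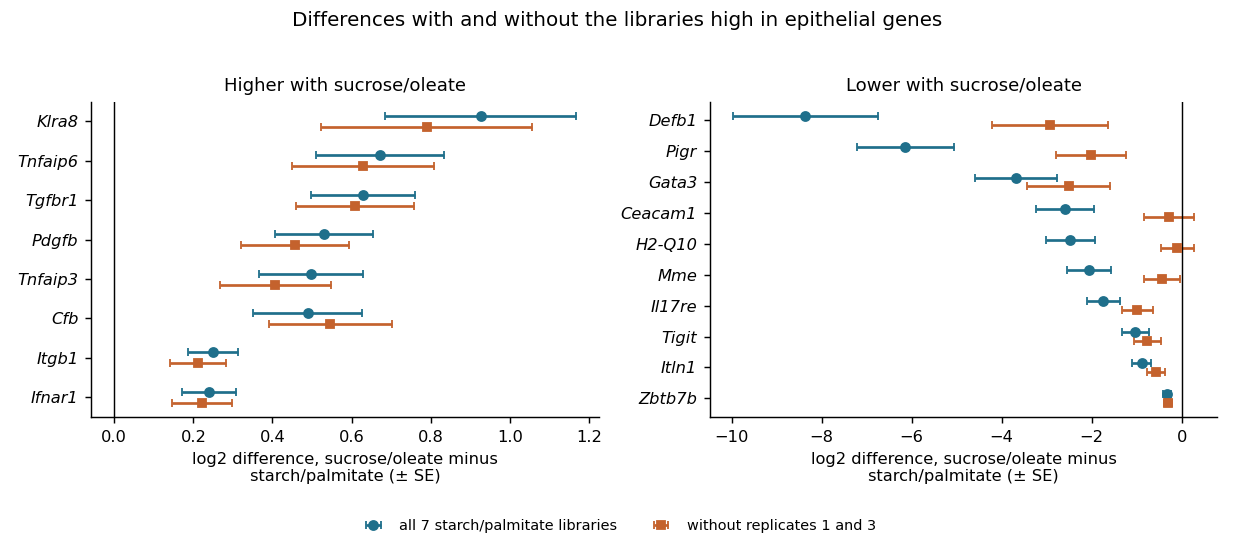
Log2 differences, sucrose/oleate minus starch/palmitate, with their standard errors, for the 8 higher and the 10 lower genes, with all 7 starch/palmitate libraries (circles) and without replicates 1 and 3 (squares). The values of Defb1 are fitted ones against a group at background. Tgfbr1 moves from 0.63 to 0.61, whereas H2-Q10 moves from -2.47 to -0.10.

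The comparison is the sum of a carbohydrate effect, sucrose minus starch over both fatty acids, and a fat effect, oleate minus palmitate over both carbohydrates, each over the 4 custom diets. Over all genes 49 passed for carbohydrate (9.98%) and 169 for fat (34.4%). Of the 8 higher genes, 6 passed for fat and 2 for carbohydrate, and none for both. Tgfbr1 had a fat effect of 0.64 ± 0.09 and a carbohydrate effect of -0.01 ± 0.09. The fat effects of Pdgfb, Tnfaip3, Itgb1 and Ifnar1 were 0.48, 0.51, 0.22 and 0.24, beside carbohydrate effects of 0.05, -0.01, 0.03 and -0.00. Klra8 had a fat effect of 1.14 ± 0.17 and a carbohydrate effect of -0.21 ± 0.16. Tnfaip6 and Cfb passed for carbohydrate, at 0.49 ± 0.11 and 0.35 ± 0.09, with fat effects of 0.18 ± 0.11 and 0.14 ± 0.09 that did not pass. Genes higher with oleate made up 23.6% of all genes tested and genes higher with sucrose 4.07%. Without starch/palmitate replicates 1 and 3 the counts for these 8 genes were again 6 for fat and 2 for carbohydrate.

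Among the 10 lower genes 7 passed for carbohydrate and 6 for fat, beside 5.91% of all genes lower with sucrose and 10.8% lower with oleate. These genes too were chosen by the sum of the effects, so the shares are set side by side only. Ceacam1, Gata3, Defb1 and Tigit passed for carbohydrate only, with -2.35, -2.58, -6.31 and -1.05. Zbtb7b, Il17re and H2-Q10 passed for fat only, with -0.28, -1.16 and -1.57. Pigr, Mme and Itln1 passed for both, and for Itln1 the effects were -0.44 and -0.44. Without starch/palmitate replicates 1 and 3, 3 of the 10 passed for carbohydrate (Defb1, Gata3 and Tigit) and 2 for fat (Il17re and Zbtb7b). Starch/oleate replicates 2 and 6 were also high in the epithelial genes, with sums of 4326 and 5414. Without these 4 libraries, 1 of the 10 passed for carbohydrate, Tigit (-0.97), and 5 for fat, namely Pigr (-1.49), Il17re (-1.09), Mme (-0.80), Itln1 (-0.36) and Zbtb7b (-0.30). The carbohydrate effects of Defb1, Gata3 and Ceacam1 were then -1.81, -1.18 and -0.44 and did not pass. Western diet replicates 6 and 2, with sums of 3959 and 1383, stayed in this fit and in its estimate of the spread. The 8 higher genes again gave 6 for fat and 2 for carbohydrate.

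**Figure D4:**
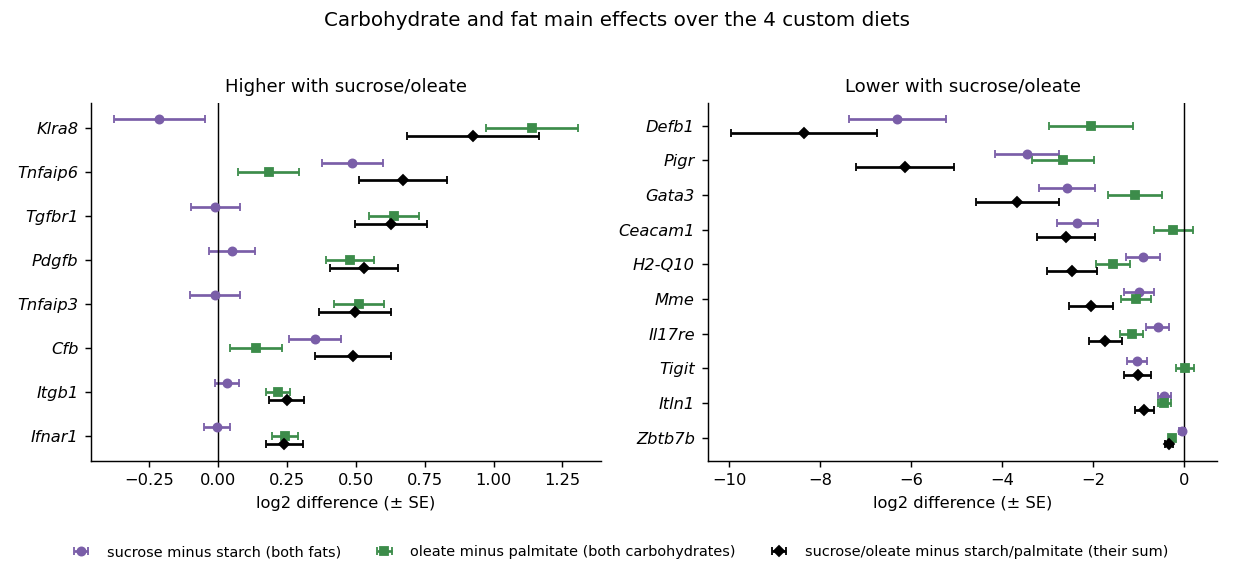
Carbohydrate effects (circles), fat effects (squares) and their sum, the sucrose/oleate minus starch/palmitate difference (diamonds), as log2 differences with standard errors for the 18 genes. For Tgfbr1 the fat effect of 0.64 and the sum of 0.63 nearly coincide, and for Tnfaip6 the carbohydrate effect of 0.49 is the larger.

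Cfd, Cd1d1, Pparg and Tfrc passed for both nutrients in opposite directions, and none of the 4 passed between the diets. Cfd had a carbohydrate effect of 1.21 (adjusted p = 0.011) and a fat effect of -1.65 (adjusted p = 9.3e-05), and its values of 5851, 9199 and 32851 with sucrose/oleate overlapped those of 10964, 16125 and 26812 with starch/palmitate. Sucrose/oleate replicates 6 and 2 were the highest libraries of their group. Cd1d1, the lipid-presenting molecule seen by natural killer T cells, had effects of 0.77 and -0.90 that both passed, and the diets differed by -0.13 ± 0.21 (95% interval -0.56 to 0.29). Pparg, the regulator of adipocyte differentiation, had 0.41 and -0.52, which passed, and -0.11 ± 0.15 (interval -0.42 to 0.20) between the diets. The transferrin receptor Tfrc had -0.87 for sucrose and 0.79 for oleate, both passing, and -0.08 ± 0.20 (interval -0.49 to 0.33) between the diets.

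Chow, fed in parallel for the same time, gives a level to set beside each diet. The ratio of positive controls A and B was 3.17 to 3.39 on chow and at most 3.16 in the libraries of both diets. Diet and this ratio therefore change together in each comparison with chow and cannot be separated there. The comparisons share the chow libraries and reuse the diet libraries in which the higher and lower genes were chosen. Their values are only set side by side. With sucrose/oleate 180 genes differed from chow (36.7%), 142 of them higher (28.9%) and 38 lower (7.74%). With starch/palmitate 124 differed (25.3%), 101 higher (20.6%) and 23 lower (4.68%). Of the 8 higher genes, 6 were above chow with sucrose/oleate and 3 of these also with starch/palmitate. Tgfbr1 was 1.34 ± 0.13 above chow with sucrose/oleate and 0.71 ± 0.13 with starch/palmitate. Klra8 stood at 1.63 and 0.70, and Tnfaip3 at 0.86 and 0.36. Pdgfb, Itgb1 and Ifnar1 were above chow with sucrose/oleate, at 0.44, 0.25 and 0.29, while with starch/palmitate they were at -0.09, 0.00 and 0.06 and did not pass. Cfb was below chow with starch/palmitate (-0.81 ± 0.14) and at -0.32 ± 0.13 with sucrose/oleate (adjusted p = 0.054). Tnfaip6 passed against chow with neither diet, at 0.28 and -0.39.

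Of the 10 lower genes, 8 were above chow with starch/palmitate, Defb1 by 6.21 ± 1.51 and Pigr by 4.96 ± 1.05. Without replicates 1 and 3 only 2 of the 10 passed in that direction, Tigit (1.29) and Itln1 (0.72). With sucrose/oleate Il17re and Zbtb7b were below chow, at -0.90 ± 0.36 and -0.42 ± 0.09. With starch/palmitate Zbtb7b was at -0.09 ± 0.09 against chow.

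The remaining cell types and pathways were described by lists of panel genes, and in most of them 0 genes passed. Over all genes tested, 3.67% passed and 48.3% lay above 0. Of 19 macrophage genes 0 passed, 16 lay above 0 and the median was 0.25. Emr1, which encodes the macrophage marker F4/80 and is now named Adgre1, had 2714, 4184 and 4910.5 with sucrose/oleate and 1645, 3559 and 5455 with starch/palmitate. The ranges overlapped, at 0.25 ± 0.26 (interval -0.27 to 0.77). Cd14, the lipopolysaccharide co-receptor, was at 0.44 ± 0.20 (adjusted p = 0.23), and the signalling adaptor Tyrobp at 0.50 ± 0.27 (adjusted p = 0.30).

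The 4 genes of lipid-associated macrophages, which gather around dying adipocytes, all lay above 0 with a median of 0.50, and 0 passed. Itgax, the integrin chain that marks them, had 2559, 6826 and 8908 with sucrose/oleate and 2100.0, 3699 and 4431 with starch/palmitate. Most sucrose/oleate libraries lay above the starch/palmitate maximum, but the lowest lay inside that range. The difference was 0.97 ± 0.33 (adjusted p = 0.092). Trem2, a lipid receptor, was at 0.64 ± 0.30 (adjusted p = 0.24), the tetraspanin Cd9 at 0.36 ± 0.17 (adjusted p = 0.24) and the fatty acid carrier Cd36 at 0.32 ± 0.15 (adjusted p = 0.23). Cd36 is also an adipocyte marker and a member of the adipocyte list. Against chow Cd36 was at -0.16 with sucrose/oleate and -0.48 with starch/palmitate, whereas Itgax, Trem2 and Cd9 lay above 0 with both diets.

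The 5 genes of resident macrophages all lay below 0 with a median of -0.24, and 0 passed. Marco, a scavenger receptor, had 21.5, 38.96 and 59.4 with sucrose/oleate, 42.0, 98.1 and 308 with starch/palmitate and a chow median of 153. Replicate 4 was the highest of the starch/palmitate libraries. The difference was -1.57 ± 0.53 (adjusted p = 0.082). The eosinophil chemokine Ccl24 was at -0.46 ± 0.22 (adjusted p = 0.24), and the haemoglobin scavenger receptor Cd163 at -0.02 ± 0.24.

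Among 19 T cell genes 3 lay above 0, the median was -0.18 and 0 passed. Cd3e, part of the T cell receptor complex, was at 36.03 and 30.2 at the medians (-0.39 ± 0.32, adjusted p = 0.55). Its medians and its fitted difference thus pointed opposite ways. Starch/palmitate replicates 6, 4 and 3 were the highest libraries, at 85.0, 75.7 and 73.8. Cd8a was near background at 8.95 and 14.8 (-0.88 ± 0.31, adjusted p = 0.10). Il7r, the interleukin receptor that sustains lymphocytes, went the other way at 0.74 ± 0.29 (adjusted p = 0.16). Of the 10 tested genes of regulatory T cells and checkpoints 1 passed, Tigit, lower, beside 2.04% of all genes, and the median was -0.09. Pdcd1, another checkpoint receptor, stood at 92.1, 64.3 and 42.2 in starch/palmitate replicates 3, 6 and 4 and at no more than 25.7 in the other libraries (adjusted p = 0.070), and Ikzf2 was at -0.82 ± 0.26 (adjusted p = 0.061). Ikzf2 had 435 in starch/palmitate replicate 3, and without that library it was at -0.42 ± 0.24 and Pdcd1 at -0.57 ± 0.31 (adjusted p = 0.40 for both). Without replicates 1 and 3 the list's median was 0.05. The regulatory T cell factor Foxp3, near background, was at 0.15 ± 0.30.

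All 9 genes of the antigen-presenting MHC class II list lay below 0, with a median of -0.31, and 0 passed. H2-Eb1 was at -0.56 ± 0.22 (adjusted p = 0.16), the class II transactivator Ciita at -0.45 ± 0.24 (adjusted p = 0.29) and H2-Ab1 at -0.31 ± 0.23 (adjusted p = 0.50). H2-Ab1 had 406, 526 and 724 with sucrose/oleate and 351, 391 and 1134 with starch/palmitate, so the medians and the fitted difference pointed opposite ways. Of the 9 genes of MHC class I and the immunoproteasome 1 passed, H2-Q10, lower, beside 2.04% of all genes, and the median was -0.12. H2-K1 and B2m were at 0.09 ± 0.15 and -0.15 ± 0.13.

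Of 11 tested B cell genes 0 passed, with a median of 0.01 that was -0.09 without starch/palmitate replicates 1 and 3, and Ms4a1, which encodes the surface protein CD20, was at -0.35 ± 0.43. In the lymph node list 0 of 11 passed. Its chemokine Cxcl13 had 22.6, 106 and 5490.3 with sucrose/oleate and 41.3, 126 and 430.2 with starch/palmitate, and the difference of 2.13 ± 0.88 (adjusted p = 0.18) turned to -0.69 without sucrose/oleate replicate 2. The inflammatory cytokine list had 0 of 12 passing and a median of 0.05. Il1b was at 0.19 ± 0.46, -0.70 without that same replicate, and Il6, near background, at -0.36 ± 0.27. Ptgs2, the inducible cyclooxygenase, was at -4.07 ± 1.32 (adjusted p = 0.069); starch/palmitate replicate 7 had 5920.0, and the highest sucrose/oleate library 101. Without that library it was at 0.47 ± 1.17 (adjusted p = 0.88).

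In the toll-like receptor list 0 of 17 passed and the median was 0.09; Tlr4 was at 0.14 ± 0.13. The endothelium and adhesion list had 0 of 7 passing and a median of 0.21, with Icam1 at 0.41 ± 0.14 (adjusted p = 0.10). Of 5 adipocyte genes 0 passed, with a median of -0.11. No gene passed among 14 of JAK, STAT and SOCS, 14 of cell death and autophagy, 14 monocyte chemokines and receptors, 10 of dendritic cells and costimulation, 6 of neutrophils and 3 of mast cells, and the medians of these lists lay between -0.15 and 0.12. Just outside the threshold were Crlf2, a cytokine receptor chain (0.32 ± 0.10, adjusted p = 0.058), Psmd7, a proteasome subunit (-0.20 ± 0.06, adjusted p = 0.058), the platelet chemokine Ppbp (1.47 ± 0.46, adjusted p = 0.059) and the receptor chain Il10rb (0.44 ± 0.14, adjusted p = 0.059), and just inside it was Tigit. Ppbp had 381 in sucrose/oleate replicate 2 beside medians of 26.3 and 23.2, and without that library it was at 0.13 ± 0.25 (adjusted p = 0.76).

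**Figure D5:**
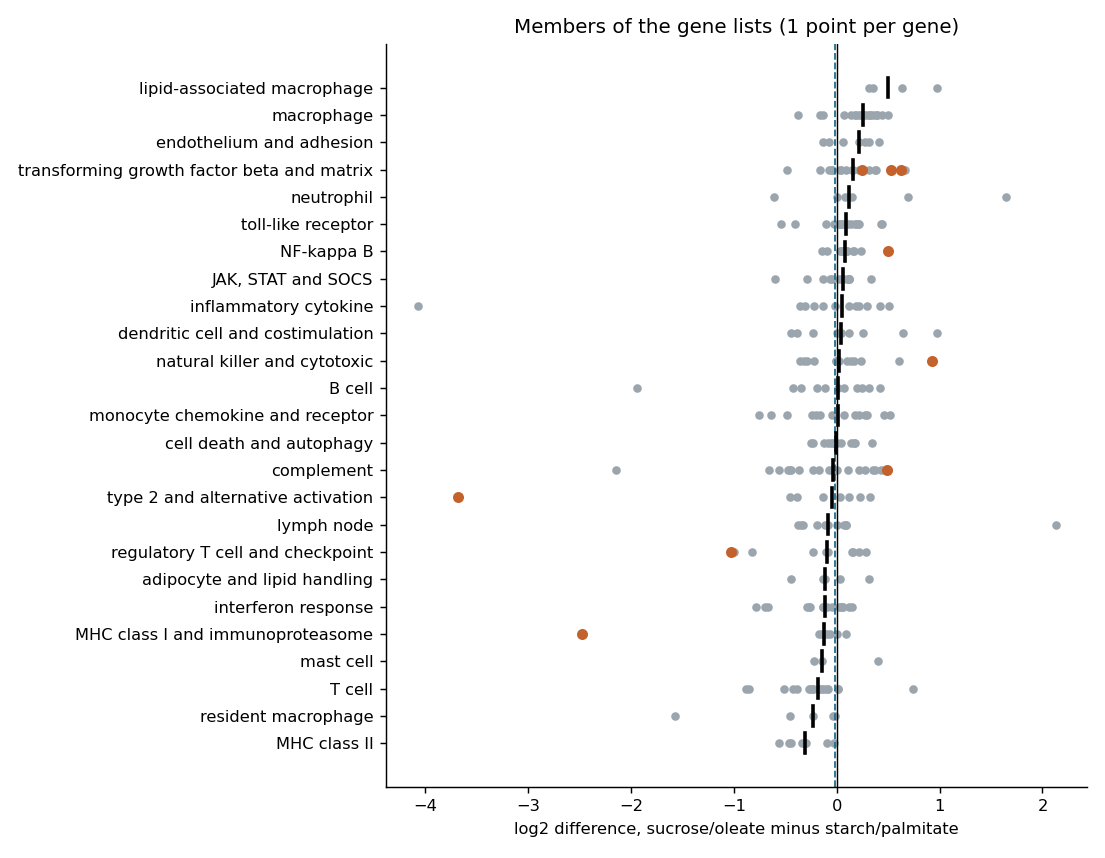
Log2 differences, sucrose/oleate minus starch/palmitate, of the members of 25 gene lists, 1 point per gene, ordered by the list median (black bar); larger orange points passed, and the dashed line is the median of all genes tested, -0.01. The epithelium list, with a median of -2.60, is not drawn. The 4 genes of the lipid-associated macrophage list lie to the right of 0, and the 9 of the MHC class II list lie to the left. Cd36 is in both the lipid-associated macrophage list and the adipocyte list.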

How the data were processed

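The authors deposited whole-number counts of NanoString nCounter barcodes per probe for 48 samples, with control probes and not scaled, as the file's values show. The panel is named in the series' design text, and the tool that made the counts is not given in the sources used here. Each library was scaled by the geometric mean of its 14 reference genes. A gene entered the test if its counts averaged 10 or more (491 of 547), and was fitted over all 6 diet groups with edgeR 4.0.16 (quasi-likelihood test, R 4.3.3, limma 3.58.1), and p-values were adjusted by Benjamini-Hochberg over those genes. A gene passed at an adjusted p under 0.05. Intervals are 95% and errors are SE of the log2 difference, n = 9 sucrose/oleate and n = 7 starch/palmitate. Lists are described by counts and medians with no test. The named genes were up to 12 that passed in each direction, the 10 smallest p-values, up to 3 that passed from each list, and a fixed set of tissue and immune genes; members of a described list were also named. Psmc2, the genes next to the threshold, and the reference genes Sdha, Oaz1, Gusb, Polr2a and Alas1 were named after their values were seen. The members and lists were chosen with earlier results of these data known. Of 561 gene probes, 549 matched RefSeq symbols and 13 carried older ones. Alternatives were other scalings (trimmed means, positive controls), filters, DESeq2 1.42.0, covariates, the replicate number as a block, and libraries left out. Added after the data were seen were the robust estimates, leaving out starch/palmitate replicates 1, 3 and 7 together, the nutrient effects without libraries high in epithelial genes, and the genes next to the threshold without a far library. The pipeline was tested on simulated data.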

Additional observations from a re-analysis of the deposited data

Results flagged for a closer look

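In 92 groups of libraries, 18 had a library far from the others by Dixon's criterion. Each group was 1 gene, the summed epithelial genes or the positive control ratio in 1 diet. The criterion's rate of about 5% holds for independent values with a normal distribution. Here the genes were partly chosen by their differences and their scaled counts were not logged, so 18 of 92 cannot be judged against that rate. Of the 18, 10 were in starch/palmitate and 8 in sucrose/oleate. Of these, 7 lay in starch/palmitate replicate 3. Its scaled counts were 8629 for Pigr (next library 273), 17525 for Defb1 (next 3564), 207 for Il17re (next 82.7), 8669 for H2-Q10 (next 389.6), 17940.3 for Mme (next 4315) and 57.7 for Itln1 (next 28.6). The summed epithelial genes of that library were 29380.2, with the next at 5747.

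Sucrose/oleate replicate 2 held 6 more. It had 51.5 for Pigr (next 26.4), 14026 for C3 (next 8163), 5490.3 for the B cell chemokine Cxcl13 (next 182), 199 for Il1b (next 33.5) and 1228 for Cd163 (next 556). Its summed epithelial genes were 261, with the next library at 196. Starch/palmitate replicate 4 was far above its group for Marco at 308 (next 151), for Cxcl13 at 430.2 (next 184) and for the B cell gene Ms4a1 at 217 (next 82.6). Sucrose/oleate replicate 7 had 724 for H2-Ab1 (next 567), and replicate 6 had 9144 for Cd1d1 (next 5818).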

How the results depend on the processing

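All 18 genes kept their sign under every alternative run, a description only, since they were chosen in these same libraries. Of the 18, 4 passed in each of the 16 fits that left out 1 library: Tgfbr1, Pdgfb, Tnfaip6 and Defb1. Over those fits the count ranged from 5 (without starch/palmitate replicate 3) to 29 (without replicate 4), from 3 to 16 higher and from 2 to 13 lower. It was 8 (0 higher) with positive control scaling, 30 (18 higher) with only these 2 groups in the fit, and 14 were higher with the lymph node list as covariate. It was 0, with 0 higher and 0 lower, without starch/palmitate replicates 1 and 3, with robust estimates and without them, and also without replicate 7. Without replicates 1 and 3, 5 of the 18 passed for carbohydrate in place of 9, and 3 without starch/oleate replicates 2 and 6 as well. The replicate number as a block gave 11 genes, 5 of them lower. The labels do not say whether equal numbers pair the libraries. Of 7 same-number pairs 1 correlated above 0.1 (mean -0.059), and so few correlations cannot decide it. Among single genes of the naming rule, directions that reversed were those of Cxcl13 (-0.57 with DESeq2, -0.69 to 2.61 leaving out 1 library), Ms4a1 (-0.50 to 0.13), Il1b (-0.70 to 0.40, and -0.036 without 3 starch/palmitate libraries) and Cd163 (-0.35 to 0.083, 0.00069 without replicates 1 and 3, with or without robust estimates, and 0.13 without 3). None of these 4 had passed, and the cause was not tested. List medians that changed sign over the 10 alternatives run on them were those of monocyte chemokines (-0.05 to 0.13), checkpoints (-0.12 to 0.05), natural killer (-0.02 to 0.20), B cell (-0.09 to 0.07), lymph node (-0.13 to 0.04), dendritic (-0.02 to 0.10), complement (-0.07 to 0.06), cell death (-0.05 to 0.03) and type 2 genes (-0.08 to 0.03). Counts near the negative probes, as for Tigit, Cd8a and Defb1 with sucrose/oleate, limit the precision of those differences.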
